A study of Mus musculus with 6 samples.

Results

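UDP-glucuronosyltransferases (Ugt) and cytosolic sulfotransferases (Sult) are the conjugating enzymes of the second phase of drug and hormone metabolism. Their genes were taken from the count table of a hepatocyte RNA sequencing (RNA-seq) experiment by symbol alone: every gene whose mouse symbol starts with Ugt or Sult followed by a digit was a member, whatever its level. The rule gave 34 members, 20 Ugt and 14 Sult, of 25184 genes in the table. Of these, 26 members (17 Ugt and 9 Sult) had a mean normalized count above 5 and were tested, and 8 did not. The annotation holds 49 genes with such symbols, and the other 15 were not analysed here. The lowest tested member, Sult2a7, had a mean normalized count of 12.1 and the highest untested one, Ugt1a2, a mean of 0.844, so no member lay near the threshold.

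The 6 libraries were made from primary hepatocytes of chow-fed mice, 3 of them Sucnr1 fl/fl (called controls here) and 3 Hep-Sucnr1 KO, plated on collagen and kept overnight in culture. Every mouse was homozygous for a floxed Sucnr1, which codes for the receptor of succinate, with loxP sites around exon 2. Hep-Sucnr1 KO mice (Sucnr1 fl/fl Alb-Cre+/-) carried in addition a Cre recombinase under the hepatocyte promoter of albumin, and the controls had no Cre, so an effect of Cre itself cannot be told apart from that of the deletion. The labels put Sucnr1 fl/fl replicate 1 and Hep-Sucnr1 KO replicate 3 on extraction day 1 and the other 4 libraries on day 2, and gave neither age nor sex. The question was whether the genotypes differ in the RNA of these enzymes, with extraction day as covariate as in the study. In bulk RNA, fewer cells of one type and less RNA per cell cannot be told apart.

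Glucuronosyltransferases sit in the membrane of the endoplasmic reticulum and move glucuronic acid from UDP-glucuronic acid to bilirubin, steroids, bile acids and drugs. Sulfotransferases work in the cytosol and move sulfate from the donor PAPS to phenols, steroids and bile acids. The conjugates are water-soluble and leave the hepatocyte through transporters toward bile or blood. Many of these genes respond to nuclear receptors and other drug sensors, several differ between male and female mice, and glucuronidation is known as a function mainly of hepatocytes near the central vein.

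Total counts per library ranged from 30504248 to 38770694, and levels are given as CPM (library-size scaled counts, with TMM factors). Sucnr1, counted over the whole gene and thus also outside the deleted exon, was at 6.71, 3.55 and 3.40 CPM in controls 1, 2 and 3, and at 2.66, 0.827 and 0.152 CPM for Hep-Sucnr1 KO 3, 4 and 5. Its groups did not overlap, with a log2 fold change of −2.23 (SE 0.54) in edgeR's quasi-likelihood test (unadjusted p = 0.00444, false discovery rate or FDR 0.998). The hepatocyte list held Alb, Ttr, Apoa1, Fgb, Tat, Hnf4a and Cyp2e1, all 7 were tested, and their summed level was 55417 to 87600 CPM. Summed over 8 genes each, Kupffer cell markers reached 42.6 to 128 CPM in the controls and 33.5 to 99.7 CPM in Hep-Sucnr1 KO. In Hep-Sucnr1 KO replicate 3, Cd68 alone gave 29.0 of the 33.5 CPM. All Kupffer cell genes but Cd68 were lowest in that library. Clec4f was at 1.90 CPM there, beside 7.91 to 25.2 CPM in the controls and 24.8 and 15.7 CPM for Hep-Sucnr1 KO 4 and 5. Sinusoidal endothelial markers reached 36.1 to 66.4 CPM in the controls and 28.6 to 43.6 CPM in Hep-Sucnr1 KO. Y-linked genes summed to 96.0 to 115 CPM and Xist did not exceed 0.0330 CPM in any library.

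The 9 Ugt1a members lie in 1 cluster on chromosome 1 (GRCm38, 88055388 to 88220002, plus strand). Each has its own first exon, which codes for the part of the enzyme that binds the substrate, spliced to 4 exons that the main transcripts of the cluster share. The junctions of the 5 most abundant Ugt1a members are printed because the first exon alone tells reads of these transcripts apart. Each line gives the last 30 bases of exon 1 in lower case and the first 30 bases of exon 2 in capitals, all coding, from GENCODE transcripts on GRCm38.
Ugt1a1: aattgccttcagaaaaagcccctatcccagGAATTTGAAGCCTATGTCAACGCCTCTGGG
Ugt1a9: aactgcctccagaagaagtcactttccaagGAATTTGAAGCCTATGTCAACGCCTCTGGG
Ugt1a6b: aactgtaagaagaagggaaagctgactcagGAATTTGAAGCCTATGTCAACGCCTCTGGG
Ugt1a5: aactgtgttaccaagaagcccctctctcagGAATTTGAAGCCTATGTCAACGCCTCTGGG
Ugt1a7c: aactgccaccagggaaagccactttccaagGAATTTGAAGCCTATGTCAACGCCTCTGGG

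The capitals were identical in all 5 transcripts and start at position 88215044. Of the 30 bases before the junction, 23 were equal to those of Ugt1a1 in Ugt1a9, 22 in Ugt1a7c, 21 in Ugt1a5 and 14 in Ugt1a6b. In the count table, Ugt1a8 had 1 count in the 6 libraries together and Ugt1a2 had 5, although both share exons 2 to 5 with Ugt1a1, which was among the 12 highest members by CPM. Pairs within the shared exons were therefore not counted for every gene of the cluster, and levels per kb were computed over exon sequence that no other gene shares (913 of 2224 bases for Ugt1a1). For Ugt1a7c this was 1915 bases, more than the 915 bases of the first exon of its transcript. Its level per kb is thus not that of the first exon alone.

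The Ugt2b genes held most of the glucuronosyltransferase CPM. Summed over the 7 Ugt2b members, the level was 1733 ± 251 CPM (SD, n = 3) in the controls and 1743 ± 306 CPM in Hep-Sucnr1 KO, which was 75.5% of all Ugt CPM. The 9 Ugt1a members together gave 7.39% of that CPM and the 2 Ugt3 members 11.2%. Pairs in exons shared within Ugt1a were not counted for every gene, and CPM ignores exon length. These shares of CPM thus do not rank the families by RNA. Over all 34 members the sum was 2396, 2730 and 2994 CPM in controls 1, 2 and 3, then 2644, 3288 and 2409 CPM for Hep-Sucnr1 KO 3, 4 and 5. The genotypes overlapped, with Hep-Sucnr1 KO replicate 4 highest of the 6.

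Ugt2b5 (ENSMUSG00000054630, chromosome 5, 87124960 to 87140318, minus strand), an enzyme of the branch that conjugates steroids and drugs, was the most abundant member. It was at 451, 532 and 624 CPM in controls 1, 2 and 3, and at 527, 524 and 489.6 CPM for Hep-Sucnr1 KO 3, 4 and 5. All Hep-Sucnr1 KO values fell inside the range of the controls. Per kb of exon its mean was 282 CPM, and its lowest library (243 CPM per kb) stood above the highest of the second member, Ugt2b1 (230 CPM per kb). Ugt2b1 and Ugt2b36 followed at means of 142 and 138 CPM per kb, and each was above the other in 3 of 6 libraries.

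Ugt1a1 (ENSMUSG00000089960, chromosome 1, 88211959 to 88218997), the enzyme that conjugates bilirubin, followed with a mean of 94.7 CPM per kb. Its values were 73.9, 95.01 and 81.3 CPM in the controls and 79.0, 123 and 66.6 CPM in Hep-Sucnr1 KO. Both the highest and the lowest library were Hep-Sucnr1 KO. Ugt1a9, which conjugates phenols, had a mean of 40.3 CPM per kb, Ugt1a6b, of the phenol-conjugating Ugt1a6 type, 32.8, Ugt1a5 10.8 and Ugt1a7c 3.54. Ugt1a6a and Ugt1a10 stayed below 1 CPM per kb. Of these, the ones besides Ugt1a1 and Ugt1a9 were chosen for naming after their values were seen. Ugt3a2 and Ugt3a1, of a family that uses other sugar donors, had means of 64.1 and 22.6 CPM per kb.

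The sulfotransferases were led by 2 genes on chromosome 7. Sult2a8 (ENSMUSG00000030378, 14410686 to 14446769, minus strand), a bile acid sulfotransferase, was at 258, 284 and 277 CPM in the controls and at 280.2, 409 and 198 CPM in Hep-Sucnr1 KO. Sult1a1 (ENSMUSG00000030711, 126672865 to 126676432, minus strand), which sulfates phenols, was at 106, 77.9 and 123 CPM and at 99.998, 85.9 and 144 CPM. For both genes the Hep-Sucnr1 KO libraries spread wider than the controls and enclosed or overlapped them. Sult2a8 made up 64.4% of all Sult CPM and 99.9% of those of the Sult2 family. Per kb, Sult2a8 had a mean of 86.6 CPM and Sult1a1 of 70.5 CPM, and Sult2a8 was above Sult1a1 in 5 of 6 libraries.

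The remaining Sult1 members were lower. Sult1d1, which sulfates catecholamines and eicosanoids, had a mean of 13.1 CPM per kb and Sult1b1, which sulfates thyroid hormones, of 3.35. Sult5a1, an enzyme whose substrates are little known, had 1.38, the estrogen sulfotransferase Sult1e1 0.749 and Sult1c2 0.668 CPM per kb. Sult2a7 and Sult4a1, the latter known from brain, closed the order of tested members at 0.285 and 0.212 CPM per kb. Of the 25 pairs of neighbours in the order of the 26 tested members per kb, 20 had ranges over the 6 libraries that overlapped, so only 5 steps were larger than the spread between libraries.

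**Figure D1:**
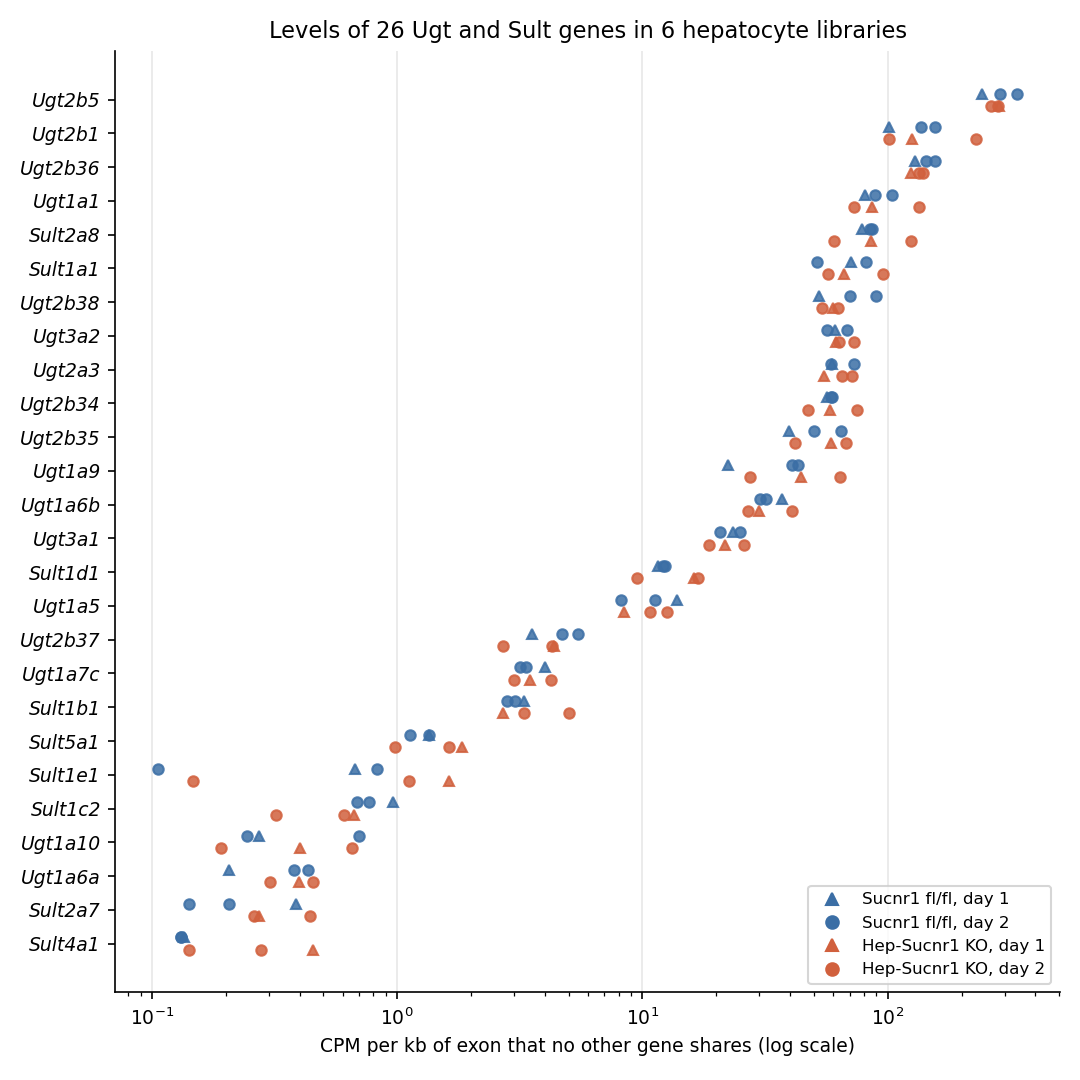
CPM per kb of unshared exon (log scale) of the 26 tested members, 1 point per library; blue marks Sucnr1 fl/fl, orange Hep-Sucnr1 KO, triangles day 1 and circles day 2. Members spanned from a mean of 282 CPM per kb for Ugt2b5 to 0.212 for Sult4a1, and the genotypes were mixed at most levels.

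The 8 untested members had between 1 and 5 counts each over all libraries. All are listed, chosen after their values were seen: Ugt1a2, Ugt1a8, Ugt8a (a galactosyltransferase of myelin lipids), Sult2b1 (which sulfates cholesterol), Sult6b2, Sult2a1, Sult2a2 and Sult2a5. The Sult2a genes near the bottom belong to the hydroxysteroid branch that is known to be higher in female than in male mouse liver. A count of 0 in 1 library allows up to 3 counts, which is 0.0780 to 0.0989 CPM depending on the library, for counting error only. No member of this group exceeded that limit in any library.

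Genotypes were then compared across all 15105 genes with a mean normalized count above 5, and only members are given. At an FDR below 0.05, edgeR called 0 of 26 members and 0.0% of all genes. At an unadjusted p below 0.05 the count was 1 of 26 members beside 3.73% of all genes tested, and that member was higher in Hep-Sucnr1 KO (1.91% of all genes). DESeq2 called 0 of the 20 members for which it gave an adjusted p (0.0636% of all such genes), and its unadjusted p was below 0.05 for 0 of 26 (2.88%). The smallest FDR of a member in edgeR was 0.998.

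Higher values in Hep-Sucnr1 KO were fitted for 17 of 26 members (65.4%, beside 50.5% of all genes tested) and lower ones for 9. The median log2 fold change was 0.09 beside 0.00 over all genes tested. For Ugt the split was 9 higher and 8 lower (median 0.03) and for Sult 8 higher and 1 lower (median 0.23). These medians rested on 1 library: without Hep-Sucnr1 KO replicate 4 they became −0.09 over all members, −0.16 for Ugt and 0.01 for Sult. In the same fit, all 8 pericentral landmark genes, such as Glul and Cyp2e1, were fitted higher in Hep-Sucnr1 KO (median 0.37). All 8 periportal ones were fitted lower (median −0.05). In either list 0 of 8 passed an FDR of 0.05, and 1, Rhbg, had an unadjusted p below 0.05 in edgeR. The summed pericentral CPM was above all controls (1989 to 3061) only in Hep-Sucnr1 KO replicate 4 (5296), with 2135 and 1297 in replicates 3 and 5. Of the 8, Rhbg had groups without overlap. The part of the landmark genes in the split of the Sult members was not tested. Within day 1 (1 library of each genotype) the median log2 ratio of Hep-Sucnr1 KO to control was 0.11, and within day 2 (2 of each) it was 0.10.

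For the marker genes the fitted differences were small beside their errors. The log2 fold change was −0.05 (SE 0.15, adjusted p 0.998 in edgeR) for Ugt2b5 and 0.10 (SE 0.22, adjusted p 0.998) for Ugt1a1. It was 0.10 (SE 0.24, adjusted p 0.998) for Sult1a1 and 0.12 (SE 0.25, adjusted p 0.998 in edgeR) for Sult2a8. As folds, the 95% intervals ran from 0.752 to 1.24 for Ugt2b5, 0.744 to 1.55 for Ugt1a1, 0.715 to 1.60 for Sult1a1 and 0.713 to 1.65 for Sult2a8. A change of 2-fold in either direction thus lay outside the interval for these 4 genes, and only changes within the limits given lay inside. Among the 21 members with a mean of at least 1 CPM, 19 had intervals within 1 log2 unit of no difference, and Ugt1a9 and Sult1c2 were the exceptions. Several signs turned with the libraries used: without Hep-Sucnr1 KO replicate 4 the log2 fold change was −0.19 for Ugt1a1 and −0.23 for Sult2a8, without Hep-Sucnr1 KO replicate 5 it was −0.17 for Sult1a1 and 0.02 for Ugt2b5, and without control replicate 2 it was −0.10 for Sult1a1 and without control replicate 3 it was 0.06 for Ugt2b5.

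**Figure D2:**
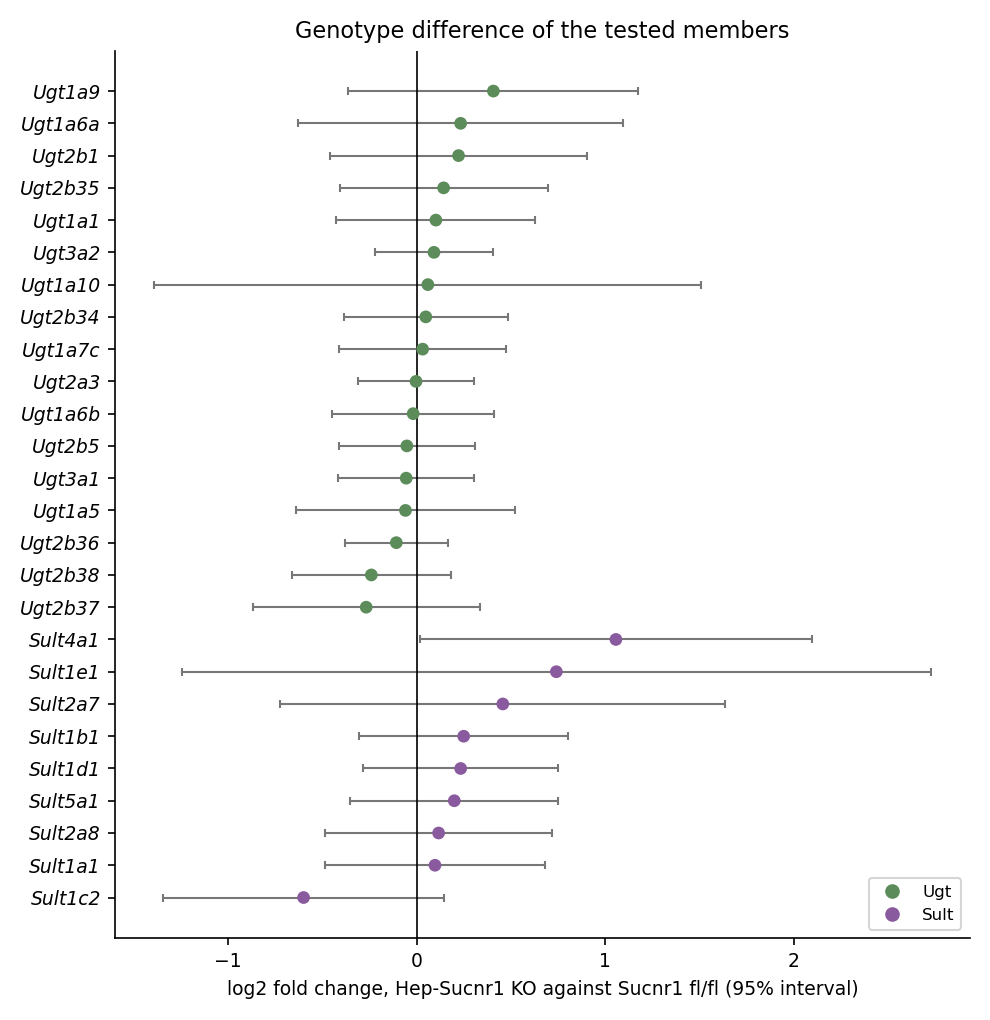
Genotype difference as log2 fold change, positive where Hep-Sucnr1 KO was higher (x axis) for the 26 tested members, with 95% intervals from edgeR's quasi-likelihood fit, Sult below and Ugt above by position and color. Only the interval of Sult4a1 (log2 fold change 1.06) did not cross 0.

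Sult4a1 was the member with an unadjusted p below 0.05. Its raw counts were 13, 11 and 10 in controls 1, 2 and 3, then 36, 12 and 23 for Hep-Sucnr1 KO 3, 4 and 5, which gave 0.338, 0.331 and 0.330 CPM against 1.14, 0.354 and 0.698 CPM. The groups did not overlap, but Hep-Sucnr1 KO replicate 4 was barely above the controls. The log2 fold change was 1.06 (SE 0.44), and edgeR gave an unadjusted p of 0.0471 (FDR 0.998). Without Hep-Sucnr1 KO replicate 3 it was 0.65 with an unadjusted p of 0.27 in edgeR.

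Sult1c2 was the other member of 26 whose groups did not overlap, and 10.6% of all genes tested had groups without overlap. It was at 1.77, 1.26 and 1.42 CPM in the controls and at 1.24, 0.591 and 1.12 CPM in Hep-Sucnr1 KO. The lowest control and the highest Hep-Sucnr1 KO library differed by less than the controls did among themselves. The log2 fold change was −0.60 (SE 0.31, unadjusted p = 0.098, FDR 0.998 in edgeR).

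Among members with a mean of at least 1 CPM, the largest positive log2 fold changes were those of Ugt1a9 (0.41, SE 0.32), Sult1b1 (0.25, SE 0.23) and Sult1d1 (0.23, SE 0.22). The largest negative ones, after Sult1c2, were those of Ugt2b37 (−0.27, SE 0.25) and Ugt2b38 (−0.24, SE 0.18), which are close relatives of Ugt2b5. None had an unadjusted p below 0.05 in the 6 libraries. Ugt1a9 was at 19.7, 35.7 and 37.9 CPM in the controls and at 38.8, 24.2 and 56.1 CPM in Hep-Sucnr1 KO. Its second lowest library was thus a Hep-Sucnr1 KO one, and without that library (replicate 4) its log2 fold change was 0.77 and edgeR gave an unadjusted p of 0.00155 (FDR 0.999). Without the same library Sult1b1 was at −0.02 and Sult1d1 at 0.01. Without Hep-Sucnr1 KO replicate 5, in contrast, Sult1d1 was at 0.47 with an unadjusted p of 0.00622 (FDR 0.681) in edgeR, Ugt1a9 at 0.10 and Ugt2b37 at −0.02. Leaving out each library in turn, Sult1b1 reached 0.51 without control replicate 1. Ugt2b37 was at −0.56 without Hep-Sucnr1 KO replicate 3, and Ugt2b38 ranged from −0.46 without that library to −0.08 without control replicate 3.

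The highly expressed Ugt2 and Ugt3 genes had small fitted differences, none past a threshold. The log2 fold change was −0.11 (SE 0.12) for Ugt2b36, 0.05 (SE 0.18) for Ugt2b34, 0.14 (SE 0.23) for Ugt2b35 and −0.00 (SE 0.13) for Ugt2a3. It was 0.09 (SE 0.13) for Ugt3a2 and −0.06 (SE 0.15) for Ugt3a1. Ugt2b1 was at 259.5, 351 and 402 CPM in the controls and at 322, 591 and 260.4 CPM in Hep-Sucnr1 KO. With a log2 fold change of 0.22 (SE 0.29), it had the highest library and 1 of the 2 lowest in the same genotype. Without Hep-Sucnr1 KO replicate 4 the log2 fold change turned to −0.16 for both Ugt2b1 and Ugt2b34 and to −0.00 for Ugt2b35. For Ugt2b1 it was 0.51 when replicate 5 was left out instead, with an unadjusted p of 0.0195 (FDR 0.847) in edgeR. For Ugt2b35 it was also negative without control replicate 1 (−0.07) or Hep-Sucnr1 KO replicate 3 (−0.08). For Ugt3a1 it was 0.02 without control replicate 3 and 0.06 without Hep-Sucnr1 KO replicate 5. For Ugt2a3 it was 0.05 without control replicate 1, 0.08 without control replicate 3, 0.04 when Hep-Sucnr1 KO replicate 3 was left out and 0.02 when replicate 5 was.

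Since the Ugt2b genes are near copies of each other, reads of one may have been counted for another or dropped, and their values are uncertain to that extent.

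The spread between libraries of a genotype differed by member. Over the 21 members with a mean of at least 1 CPM, the median coefficient of variation was 23.3% in Hep-Sucnr1 KO and 12.9% in the controls, beside 12.3% and 12.8% over the 11716 genes at that level. The 8 Ugt2 members did not share this, with medians of 18.0% in Hep-Sucnr1 KO and 18.8% in the controls. For Ugt2b5 the coefficient was 4.02% in Hep-Sucnr1 KO and 16.2% in the controls, and for Ugt2b38 it was 7.42% and 25.9%. For Sult2a8 it was 35.9% and 4.97%. Hep-Sucnr1 KO replicate 4 was the highest library for 12 of 26 members (46.2%, beside 19.3% of all genes tested), and replicate 5 was the lowest for 9 (34.6%, beside 16.7%). Both held for 7 members (26.9%, beside 4.06% of all genes): Ugt1a1, Ugt1a6b, Ugt1a7c, Ugt2b34, Ugt3a1, Sult1d1 and Sult2a8.

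Replicate 4 was above replicate 5 for 20 of 26 members (76.9%, beside 49.1% of all genes), among them all 8 Ugt2 and both Ugt3 members. The ratio of their CPM was 2.27 for Ugt2b1, 2.06 for Sult2a8, 1.85 for Ugt1a1 and 1.78 for Sult1d1. The 6 members with the reverse order were Ugt1a9 (ratio 0.432), Sult4a1 (0.508), Sult1c2 (0.526), Sult1a1 (0.599), Sult5a1 (0.599) and Ugt1a6a (0.669). Ugt2b5, the most abundant, hardly differed (1.07).

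**Figure D3:**
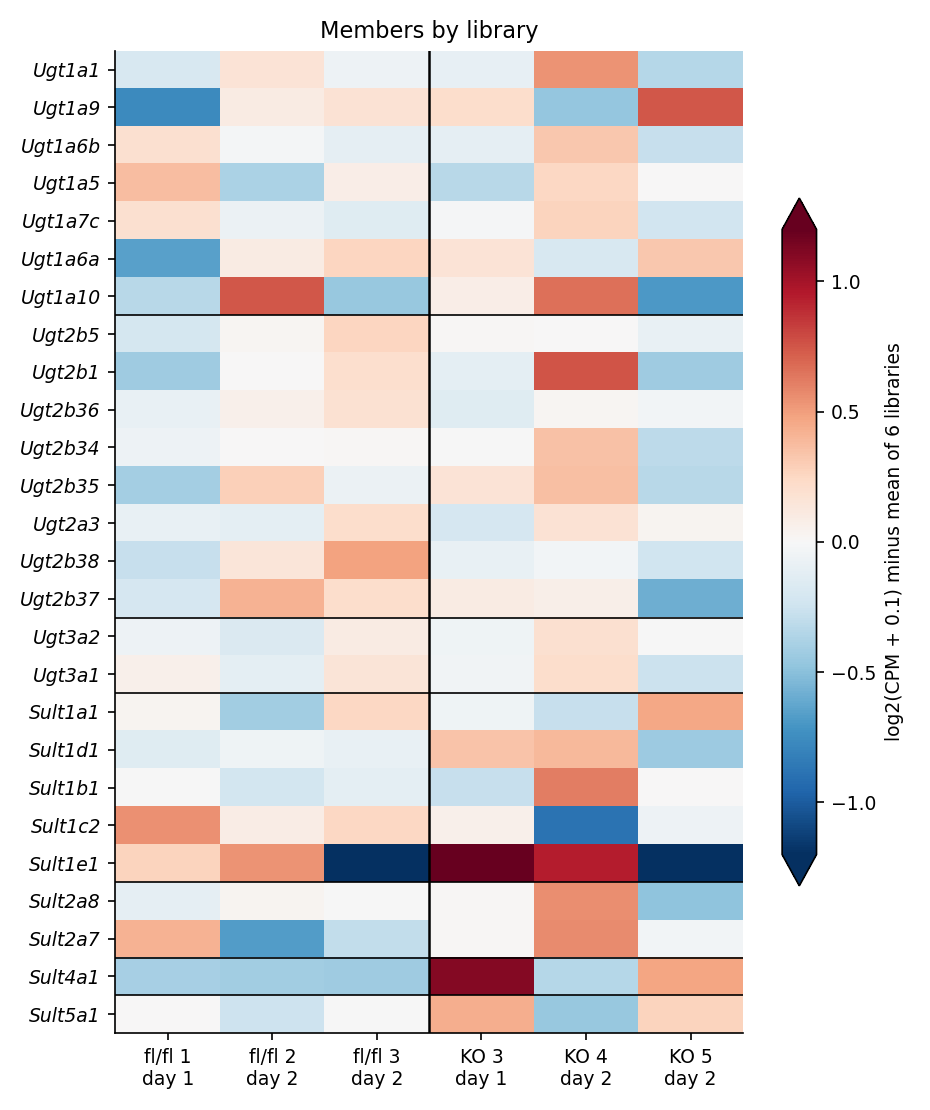
Log2(CPM + 0.1) of each tested member minus its mean over the 6 libraries (color), members in rows by family and libraries in columns, with a line between genotypes and colors that saturate at the ends of the scale. Hep-Sucnr1 KO replicate 4 was the highest library for 12 of 26 members and Hep-Sucnr1 KO replicate 5 the lowest for 9.

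Landmark genes of the liver zones moved with this contrast between 2 libraries of 1 genotype. All 8 pericentral landmarks (Glul, Cyp2e1, Cyp1a2, Oat, Lgr5, Axin2, Slc1a2 and Rhbg) were higher in Hep-Sucnr1 KO replicate 4 than in replicate 5, by 2.14 to 7.801 times, and all 8 periportal landmarks (Cyp2f2, Hal, Sds, Gls2, Pck1, Ass1, Asl and Cdh1) were lower, at 0.445 to 0.775 times. Summed, the pericentral landmarks were at 1989, 3061 and 2188 CPM in the controls and 2135, 5296 and 1297 CPM for Hep-Sucnr1 KO 3, 4 and 5. The periportal ones were at 6113, 4124 and 6072 CPM and at 5149, 3946 and 6171 CPM. No landmark was at 0 in any library. The part of zonal makeup in the values of the members was not tested.

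Within the Ugt1a cluster the shares of the members varied between libraries. Shares sum to the whole, so a higher share of one lowers the others. Per unshared base, Ugt1a1 took 51.0%, 55.0% and 50.2% of the cluster in controls 1, 2 and 3, then 49.9%, 61.0% and 41.0% for Hep-Sucnr1 KO 3, 4 and 5. Ugt1a9 took 14.1%, 21.5% and 24.3% and then 25.5%, 12.5% and 35.8%. By share, Hep-Sucnr1 KO replicate 4 had the most Ugt1a1 and the least Ugt1a9, and replicate 5 the reverse. By CPM, the least Ugt1a9 was in control replicate 1. As CPM, Ugt1a9 was 0.197 times Ugt1a1 in Hep-Sucnr1 KO replicate 4 and 0.841 times in replicate 5, beside 0.266, 0.376 and 0.466 times in the controls.

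**Figure D4:**
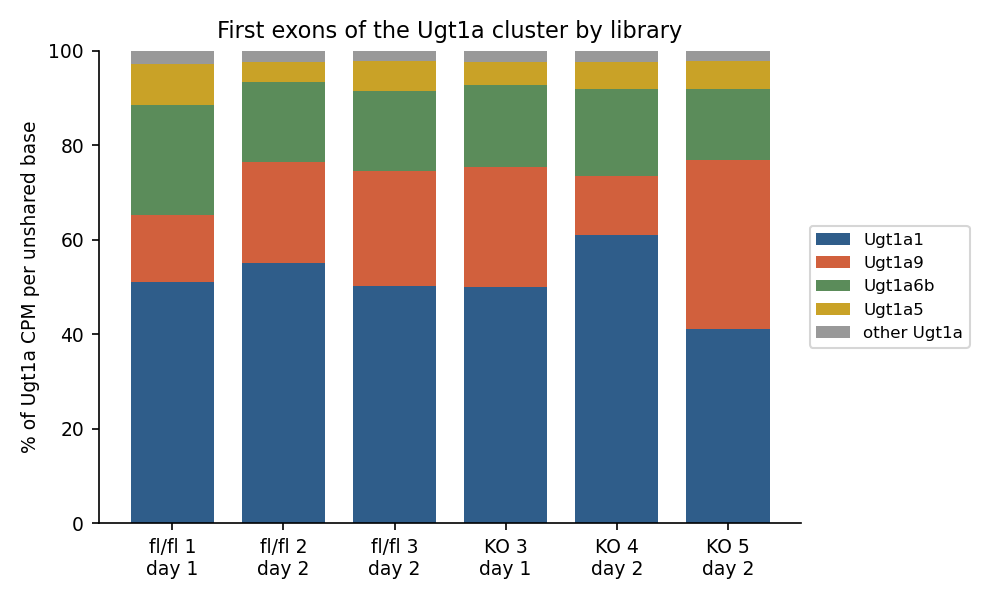
Share of the summed Ugt1a CPM per unshared base (y axis, percent) by Ugt1a member in the 6 libraries. Ugt1a1 ranged from 41.0% to 61.0% and Ugt1a9 from 12.5% to 35.8%, with both extremes of each in Hep-Sucnr1 KO replicates 4 and 5.

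Each Ugt1a member starts from its own promoter, and the stretches before the starts of Ugt1a1 and Ugt1a9 are printed because these 2 genes had opposite orders in Hep-Sucnr1 KO replicates 4 and 5. Both are the 250 bases before the RefSeq start on the plus strand of GRCm38.p6, 5′ to 3′, at chr1:88211709-88211958 for Ugt1a1 and chr1:88070529-88070778 for Ugt1a9. Capitals mark the core motif of the hepatocyte factor HNF1, searched as GTTAAT on both strands.
Ugt1a1: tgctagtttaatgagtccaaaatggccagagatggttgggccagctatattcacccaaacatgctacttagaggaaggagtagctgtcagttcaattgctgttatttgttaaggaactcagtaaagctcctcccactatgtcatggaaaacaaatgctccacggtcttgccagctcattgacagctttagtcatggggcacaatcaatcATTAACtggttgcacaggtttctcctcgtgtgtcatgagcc
Ugt1a9: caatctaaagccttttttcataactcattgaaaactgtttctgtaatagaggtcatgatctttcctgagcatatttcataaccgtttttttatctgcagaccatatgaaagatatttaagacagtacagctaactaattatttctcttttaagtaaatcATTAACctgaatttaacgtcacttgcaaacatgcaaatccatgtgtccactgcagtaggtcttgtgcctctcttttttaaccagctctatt

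The motif began 41 bases before the start of Ugt1a1 and 91 bases before that of Ugt1a9. RefSeq windows were found for 28 of 34 members, and 22 of the 26 tested ones, in 24 windows. GTTAAT was in 8 of the 24 windows of tested members and in 6.43% of 32851 windows of all genes. The nuclear receptor motif AGGTCA was in 10 of 24 and 14.0% of all, the core GCGTG of the aryl hydrocarbon receptor in 3 of 24 and 28.2%, and the core TGACNNNGC of NRF2 in 0 of 24 and 10.2%, each on either strand. Members with AGGTCA included Ugt2b5, Ugt2b35, Ugt2b36, Ugt2b37 and Ugt2b38. As the Ugt2b genes are near copies of each other, their windows are not independent. All these are matches of letters, and binding was not measured.

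Day 2 was compared with day 1 in the same fit. At an FDR below 0.05 edgeR called 0 of 26 members (0.0% of all genes) and at an unadjusted p below 0.05 also 0 (7.49% of all genes), and DESeq2 called 0 of 26 (1.61%). The median log2 difference was 0.09 over members and 0.02 over all genes. All 8 Ugt2 members were fitted higher on day 2, by 0.07 to 0.47 on the log2 scale, and 6 of 9 Sult members lower, down to −0.97 for Sult1e1. Of all genes tested, 53.3% were fitted higher on day 2. The smallest unadjusted p was 0.15 (edgeR), for Ugt2a3, with an FDR of 0.853.

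The interaction of genotype and day passed an FDR of 0.05 for 0 of 26 members (0.0% of all genes) in edgeR. Before adjustment 1 member had p below 0.05, Ugt1a5 (3.69% of all genes), chosen for naming after its values were seen. Ugt1a5 was at 12.3 CPM in the controls and 7.50 CPM in Hep-Sucnr1 KO on day 1, and at 7.28 and 10.02 CPM against 11.3 and 9.53 CPM on day 2. The order of the genotypes differed between the days, with 1 library per genotype on day 1 (unadjusted p = 0.045 in edgeR's test of the interaction).

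The study's curated zonation sets hold 5 members. Its pericentral set holds Sult1b1, Sult1e1 and Ugt2b37, and its periportal set Sult5a1 and Ugt2b38. Sult1e1 was at 0.832, 1.02 and 0.132 CPM in the controls and at 2.03, 1.39 and 0.182 CPM in Hep-Sucnr1 KO. In each genotype 1 library of day 2 was far below the other 2, with 4 and 6 raw counts, and the log2 fold change was 0.74 with an SE of 0.84 and −0.04 without Hep-Sucnr1 KO replicate 4. Sult1b1 was at 9.10, 7.82 and 8.41 CPM and at 7.50, 14.0 and 9.14 CPM. Only Hep-Sucnr1 KO replicate 4 stood apart from the rest.

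Ugt2b37 was at 6.71, 10.4 and 8.94 CPM in the controls and at 8.26, 8.09 and 5.10 CPM in Hep-Sucnr1 KO. Ugt2b38 was at 99.4, 133 and 169 CPM and at 114, 118 and 102.1 CPM. On day 1 the Hep-Sucnr1 KO library was above the control for both genes, and on day 2 both Hep-Sucnr1 KO libraries were below both controls. Without the day 1 libraries, Ugt2b38 had a log2 fold change of −0.46 and edgeR gave an unadjusted p of 0.040 (FDR 0.999). Sult5a1 was at 5.96, 4.99 and 5.93 CPM and at 8.10, 4.31 and 7.19 CPM, with a log2 fold change of 0.20 (SE 0.23). That value was 0.01 when Hep-Sucnr1 KO replicate 5 was left out and 0.42 when replicate 4 was. None of these 5 genes passed an unadjusted p of 0.05 over the 6 libraries.

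The genes that serve the reactions were counted in the same fit. Of the 3 genes that make UDP-glucuronic acid and carry it into the endoplasmic reticulum (Ugp2, Ugdh and Slc35d1), 0 passed an FDR or an unadjusted p of 0.05 in edgeR, and all 3 were fitted lower in Hep-Sucnr1 KO (median log2 fold change −0.18). Ugdh, which oxidizes UDP-glucose to UDP-glucuronic acid and was the most abundant as CPM, was at 424, 372 and 351 CPM in the controls and at 507, 299 and 322 CPM in Hep-Sucnr1 KO. Its genotypes overlapped. Of the genes that make, move or break down PAPS and its sulfate, 6 of 7 listed were tested, 0 passed either threshold, and 5 were fitted higher and 1 lower (median 0.18). Slc26a1, a sulfate transporter, led them as CPM with 167, 128 and 95.5 CPM and then 115, 90.6 and 118 CPM.

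Chosen after their values were seen, 3 of the genes tested in the cofactor, deconjugation, transport, transcription factor and reporter lists had groups without overlap. They were Slc35d1 (of 3 tested for UDP-glucuronic acid supply), Bpnt1 (of 6 for PAPS) and Abcc3 (of 8 for transport). Each had an FDR of 0.998 in edgeR. No such gene was among the 11 genes of the transcription factor list, the 6 reporter genes or the deconjugation list. Over all genes tested, 10.6% had groups without overlap, so this alone does not set the 3 apart. Slc35d1, the carrier of UDP-glucuronic acid, was at 43.9, 47.7 and 44.8 CPM in the controls and at 40.1, 37.8 and 42.6 CPM in Hep-Sucnr1 KO (log2 fold change −0.18, SE 0.10). Bpnt1, which breaks down the product of PAPS, was at 40.2, 41.8 and 38.11 CPM and at 42.6, 52.0 and 42.6 CPM (0.19, SE 0.12).

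Transporters of conjugates and of their precursors gave 0 of 8 past either threshold in edgeR, with 3 fitted higher and 5 lower (median −0.14). Abcc2, which exports conjugates into bile, was at 243, 440.5 and 314 CPM in the controls and at 271, 363 and 207 CPM in Hep-Sucnr1 KO, with overlapping groups. Abcc3, which exports conjugates toward blood, was at 147, 144.8 and 185 CPM and at 109.5, 142 and 144.6 CPM (log2 fold change −0.27, SE 0.13). Its highest Hep-Sucnr1 KO library lay just under its lowest control. The lysosomal glucuronidase gene Gusb, the 1 tested gene of the deconjugation list, was at 25.1, 18.9 and 19.9 CPM and at 21.1, 14.3 and 20.6 CPM (log2 fold change −0.19, SE 0.16).

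A list of transcription factors known to act on these families also held Keap1, which is not one. It gave 0 of 11 genes past either threshold in edgeR, with 3 fitted higher and 8 lower (median −0.03). The most abundant as CPM, Hnf4a, was at 176, 253 and 182 CPM and at 228, 313 and 152 CPM. All of the 11 but Keap1 were higher in Hep-Sucnr1 KO replicate 4 than in replicate 5, an order that 49.1% of all genes tested had. The ratios ran from 1.03 for Nfe2l2 and 1.10 for Arnt to 4.29 for Nr1i3, the drug sensor CAR. Among 6 reporter genes of inducers (Cyp2b10, Cyp3a11, Cyp1a1, Cyp1a2, Cyp4a14 and Nqo1), 0 passed either threshold, with 4 fitted higher and 2 lower (median 0.17). Cyp3a11, a target of the sensor PXR, was at 1073, 1122 and 1124 CPM in the controls and at 990.2, 2228 and 1064 CPM in Hep-Sucnr1 KO. For Cyp3a11, Hep-Sucnr1 KO replicate 4 alone stood apart. The reporter genes did not share this: 3 were higher in replicate 4 than in replicate 5 and 3 lower. Their ratios ran from 0.200 for Cyp2b10 to 4.56 for Cyp1a2.

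**Figure D5:**
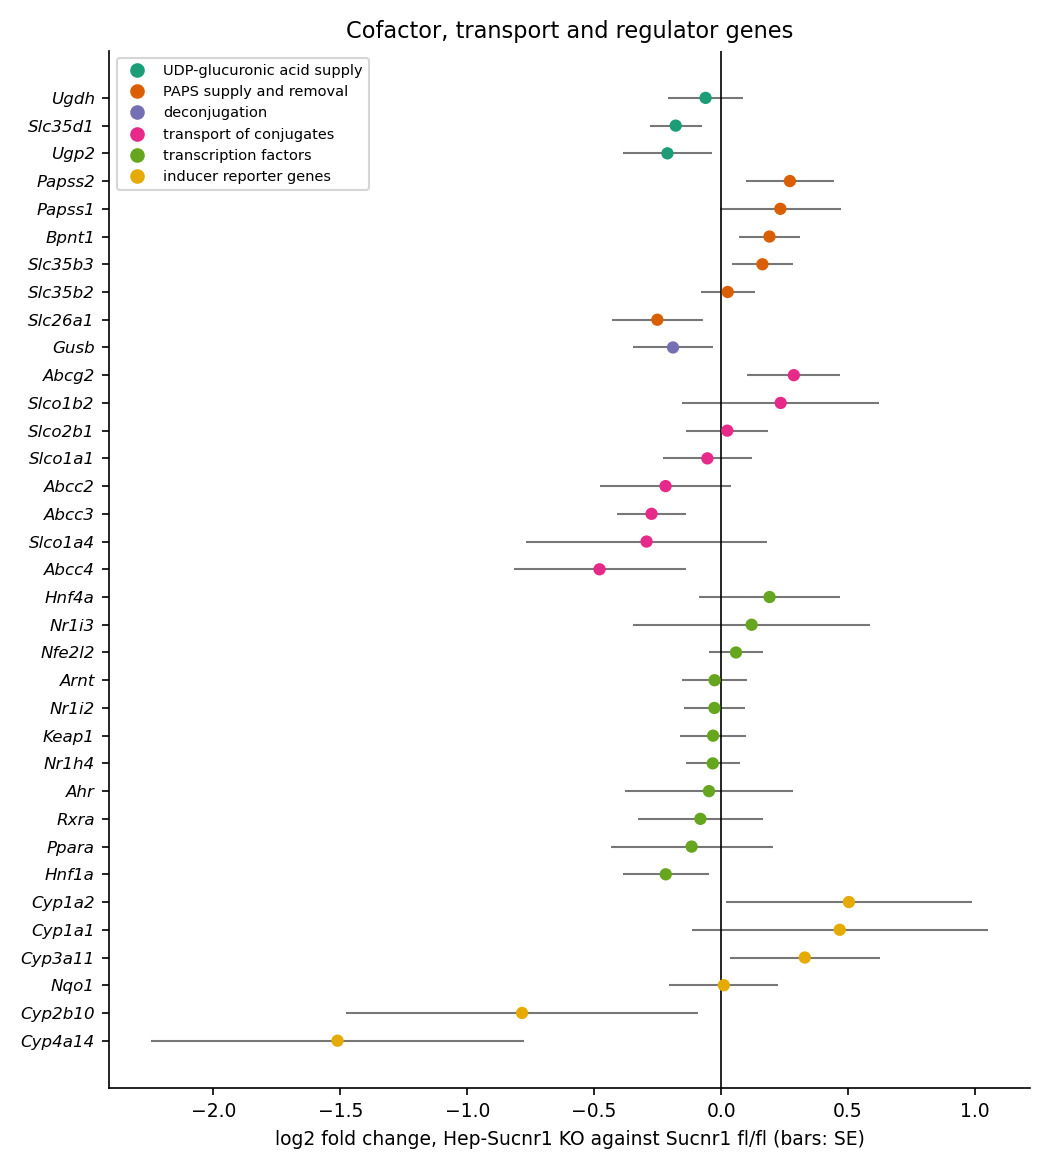
Genotype difference as log2 fold change, positive where Hep-Sucnr1 KO was higher (x axis; bars are SE from edgeR's fit) for the 35 tested genes of the cofactor, deconjugation, transport, transcription factor and reporter lists, colored by list. The medians were −0.18 for UDP-glucuronic acid supply, 0.18 for PAPS and −0.14 for transport, and 0 of the genes passed an unadjusted p of 0.05.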

How the data were processed

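Poly(A) RNA of 6 libraries was sequenced as stranded pairs. Per the labels and the study's methods, the authors trimmed reads with Trim Galore 0.6.7, aligned them with STAR 2.7.10a to GRCm38, counted pairs per Ensembl gene with featureCounts using strand, and deposited raw counts. How pairs matching several genes were treated is not given in the sources used here.

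Symbols and exons came from GENCODE M21 (25096 of 25184 genes matched). Genes with a mean DESeq2-normalized count above 5 were tested with edgeR 4.0.16 (R 4.3.3): TMM, quasi-likelihood test, extraction day and genotype, Benjamini-Hochberg adjustment over all genes. DESeq2 1.42.0 was an alternative, as were other scalings, filters, covariates, a robust fit, day 2 alone and each library left out. The tests were also run on simulated counts that held no effect of day and no spread shared between genes. That run does not vouch for the p-values of these data. With nothing to show that libraries came from separate cultures beyond their labels as mice, p-values measure the spread between these libraries. Intervals are 95%. Exon lengths exclude bases shared with other genes.

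Members named were the markers, those of the study's zonation sets, the 12 highest by CPM, those past a threshold or without overlap, the 3 largest changes each way, the 3 widest ranges and those nearest the filter. Members and lists were chosen with earlier results of these data known.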

Additional observations from a re-analysis of the deposited data

How the results depend on the processing

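No member passed an FDR of 0.05 for genotype or day under any alternative run, and the lowest adjusted p of a named member was 0.681. The number with an unadjusted p below 0.05 for genotype was 1, and 0 with DESeq2 or with library size alone. With 1 library left out it ranged from 0 to 3. The median log2 fold change ranged from −0.0873 to 0.1347 over all members and from 0.008 to 0.3652 over Sult, in both cases lowest without Hep-Sucnr1 KO replicate 4. Of 21 named members, 10 kept their sign in every alternative. Signs of the others turned with at least 1 library left out. Their ranges over the libraries left out were Sult1a1 −0.167 to 0.276, Sult1b1 −0.019 to 0.510, Sult1e1 −0.037 to 1.753, Sult2a8 −0.230 to 0.365, Ugt1a1 −0.186 to 0.318, Ugt2a3 −0.106 to 0.078, Ugt2b1 −0.162 to 0.507, Ugt2b34 −0.162 to 0.219, Ugt2b35 −0.079 to 0.379, Ugt2b5 −0.198 to 0.056 and Ugt3a1 −0.206 to 0.062. Without Hep-Sucnr1 KO replicate 4 the signs of Sult1a1, Ugt2a3, Ugt2b5 and Ugt3a1 stayed and those of the rest turned. With day 2 alone, Ugt2a3 was at 0.042 and Ugt2b35 at −0.079, and with no day term Ugt2a3 was at 0.002. The cause was not tested. No paired analysis was run because the labels give no pairs of libraries, and extraction day entered the fit as a covariate. With 3 libraries per genotype, intervals of members with a mean of at least 1 CPM spanned 0.27 to 0.77 log2 units on either side.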
